A study of Homo sapiens with 29 samples.

Results

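Replication-dependent histone mRNAs are made by a small, dedicated set of factors, and 7 of their genes were followed here after knockdown of the zinc finger transcription factor ZNF148 in human myoblasts: NPAT, CASP8AP2, SLBP, LSM10, LSM11, ZNF473 and ERI1. The genes were chosen by name and function, with earlier results of these data known, as a possible cause of the histone gene changes. Their probes were found through the RefSeq accession that each probe carries. They are 7 of the 22439 genes named in this way. CASP8AP2 had 2 probes and each other member had 1, and all 8 probes passed the filter on low signals. NPAT was below background on 1 array and ZNF473 on 1, and 1 further ZNF473 spot was marked as an outlier and left out.

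Replication-dependent histone genes are expressed mainly in S phase, when new DNA has to be packaged. Their mRNAs end in a conserved stem-loop in place of a poly(A) tail. NPAT, a substrate of cyclin E and CDK2, activates the transcription of these genes, and it works in a nuclear compartment, the histone locus body, together with the product of CASP8AP2 (FLASH). The stem-loop binding protein SLBP, the U7 small nuclear ribonucleoprotein with its specific ring proteins LSM10 and LSM11, and ZNF473 (ZFP100), which links U7 to SLBP, take part in cutting the 3′ end, and the exonuclease ERI1 trims that end and takes part in the decay of the mRNA. Myoblasts leave the cell cycle when they form myotubes, so the demand for histones falls in this lineage during differentiation.

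LHCN-M2 cells are nontransformed human myoblasts, a single line that carries telomerase and CDK4, a kinase that drives entry into the cell cycle. All cells were transfected with 20 nM siRNA, either ZNF148 siRNA or nontargeting siRNA, and total RNA was hybridized to 29 one-colour microarrays in 10 groups: 24, 48 and 96 h in growth media and 48 and 96 h in differentiation media with each siRNA. Every group held 3 arrays, labelled as biological replicates, but the controls at 96 h in growth media held 2. The hours in differentiation media count from the change of media, which followed transfection. The paper does not say from when the later hours in growth media count, so the same hour in both media may not be the same time since transfection. By its figure legend, cells in growth media were subconfluent at 24 h and confluent at 48 and 96 h. RNA was measured in bulk, so fewer cells of a type and less RNA per cell cannot be told apart.

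ZNF148 itself was lower on every array with ZNF148 siRNA than on any array with nontargeting siRNA of the same condition. Its log2 change was -1.53, -2.08 and -2.30 in growth media (24, 48 and 96 h) and -2.34 and -2.74 in differentiation media (48 and 96 h), and its second probe fell as well. The arrays had 41.5% to 56.5% of their probes well above background. The myoblast marker DES was well above background on all 29 arrays, as were 5 or 6 of 6 tested myoblast markers on each array. These markers did not move together. With ZNF148 siRNA, 1 rose and 1 fell at 24 h, and 4 rose and 1 fell at 48 and at 96 h in growth media. In differentiation media 3 rose and 1 fell at 48 h, and 2 rose and 1 fell at 96 h. DES itself rose by 2.14 and 1.98 at 48 and 96 h in growth media, so it alone does not show that the cells stayed myoblasts. The 1st array with nontargeting siRNA at 48 h in growth media stood apart: the median of 6 myotube markers was 15.46 there, while the group's lowest array had 7.03, so the counts of members, histone genes, S phase markers and myotube markers at 48 h in growth media are also given for the other 28 arrays.

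The upstream sequences of 3 members that fell from 48 h on in growth media (NPAT, CASP8AP2 and SLBP) and of the member that rose there (LSM10) are shown so that the start regions of genes with opposite changes can be set side by side. Each is the 250 bases before the transcription start in RefSeq on build GRCh38.p14, 5′ to 3′ on the gene's strand, with matches to motifs in capitals. The motifs searched on both strands were the CCAAT box (CCAAT), the GC box (GGGCGG), E2F sites (TTTGGCGC, TTTCCCGC, TTTGCCGC or TTTCGCGC) and a C-rich element (CCCTCCCC).
NPAT (chr11:108222639-108222888, minus strand): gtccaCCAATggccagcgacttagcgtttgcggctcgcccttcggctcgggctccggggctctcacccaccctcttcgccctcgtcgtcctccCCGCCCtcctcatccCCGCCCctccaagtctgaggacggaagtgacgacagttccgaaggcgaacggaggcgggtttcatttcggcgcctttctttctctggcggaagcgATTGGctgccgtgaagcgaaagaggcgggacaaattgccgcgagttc
CASP8AP2 (chr6:89829630-89829879, plus strand): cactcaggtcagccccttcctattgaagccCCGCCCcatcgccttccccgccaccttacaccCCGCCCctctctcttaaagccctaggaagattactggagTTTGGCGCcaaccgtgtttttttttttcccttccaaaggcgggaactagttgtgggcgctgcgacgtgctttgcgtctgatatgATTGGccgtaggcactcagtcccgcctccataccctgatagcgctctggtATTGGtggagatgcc
SLBP (chr4:1712320-1712569, minus strand): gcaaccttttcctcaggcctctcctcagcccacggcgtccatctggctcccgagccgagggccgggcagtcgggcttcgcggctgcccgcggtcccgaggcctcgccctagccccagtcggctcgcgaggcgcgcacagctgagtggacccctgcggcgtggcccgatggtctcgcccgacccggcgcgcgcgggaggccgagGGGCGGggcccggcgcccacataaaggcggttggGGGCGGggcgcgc
LSM10 (chr1:36397909-36398158, minus strand): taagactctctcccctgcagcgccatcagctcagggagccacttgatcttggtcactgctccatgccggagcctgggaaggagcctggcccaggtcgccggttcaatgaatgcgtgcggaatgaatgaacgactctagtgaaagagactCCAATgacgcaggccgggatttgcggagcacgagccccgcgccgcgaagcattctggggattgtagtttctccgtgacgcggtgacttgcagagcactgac

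NPAT and CASP8AP2 each held 2 CCAAT boxes and 2 GC boxes, SLBP held 2 GC boxes and LSM10 held 1 CCAAT box. Of these 5 members CASP8AP2 held an E2F site, TTTGGCGC, and LSM11, whose sequence is not shown, held 1 GC box. None of the 5 windows held the C-rich element. Among the 34943 promoter windows of the same length in the table, 32% held a CCAAT box, 42.5% a GC box, 2.77% an E2F site and 12.7% the C-rich element. The NPAT window lies between NPAT and its neighbour ATM, which is transcribed in the opposite direction. ZNF473 and ERI1 are named without a sequence.

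NPAT and CASP8AP2, which act at the transcription of histone genes, fell with ZNF148 siRNA at 48 and 96 h in growth media. NPAT had 6.99, 7.07 and 6.83 (log2 signal) with ZNF148 siRNA and 7.16, 7.10 and 7.16 with nontargeting siRNA at 24 h. The groups did not overlap, but the difference of -0.18 did not pass the test (SE 0.19, adjusted p = 0.60, limma with Benjamini-Hochberg adjustment over all 38714 tested probes, as for every adjusted p here). At 48 h in growth media the arrays were at 5.23, 4.99 and 5.17 against 6.60, 6.90 and 7.16. At 96 h they were at 4.95, 5.54 and 5.19 against 7.24 and 7.22. All ZNF148 siRNA arrays lay more than 1 log2 unit below all controls at both times, and the log2 level fell by 1.76 (SE 0.19, adjusted p = 8.9e-08) and 2.00 (SE 0.21, adjusted p = 7.5e-08), which left 29.6% and 24.9% of the control level. With normexp background correction of the scanner signals the changes were smaller, -0.86 at 48 h and -1.10 at 96 h, and still passed. In differentiation media, NPAT had 5.19, 4.89 and 5.05 against 6.57, 6.91 and 6.71 at 48 h and fell by 1.69 (adjusted p = 8.3e-08). At 96 h it had 5.86, 4.84 and 5.30 against 6.52, 6.66 and 6.62 and fell by 1.26 (SE 0.19, adjusted p = 7.4e-06), with the lowest array below background. In the order of its 10 group means, the 4 ZNF148 siRNA groups from 48 h on lay at 5.04 to 5.33 and the other 6 at 6.60 to 7.23, and the step between these sets was the one between neighbours that passed.

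CASP8AP2 did not pass the test at 24 h (log2 change 0.03, 95% interval -0.58 to 0.65). It had 7.01, 7.11 and 6.57 against 7.64, 7.75 and 7.92 at 48 h in growth media, and 6.70, 7.10 and 6.89 against 8.16 and 7.98 at 96 h. The groups did not overlap at either time, and the log2 level fell by 0.88 (SE 0.30, adjusted p = 0.018) and 1.17 (SE 0.33, adjusted p = 0.0057). The 48 h call of CASP8AP2 was lost without the 3rd array of either group (adjusted p = 0.064 and 0.089) and the 96 h call without the 1st control array (adjusted p = 0.053). Its second probe had a smaller error and changed by -0.86 and -1.12 at these times (SE 0.12 and 0.14, adjusted p = 4.8e-06 and 7.5e-07). At 48 h in differentiation media the change of -0.36 did not pass (adjusted p = 0.34), while that of the second probe, -0.35 with a smaller error (SE 0.12), did (adjusted p = 0.023). At 96 h in differentiation media CASP8AP2 had 6.89, 5.19 and 6.99 against 7.37, 7.59 and 7.28 and fell by 1.05 (SE 0.30, adjusted p = 0.0051). The 2nd ZNF148 siRNA array was the low one: the change was -0.47 without it, and with the arrays of this comparison alone it did not pass (adjusted p = 0.17). The second probe had 6.91, 6.73 and 6.89 against 7.24, 7.36 and 7.14 and fell by 0.40 (SE 0.12, adjusted p = 0.0099).

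**Figure D1:**
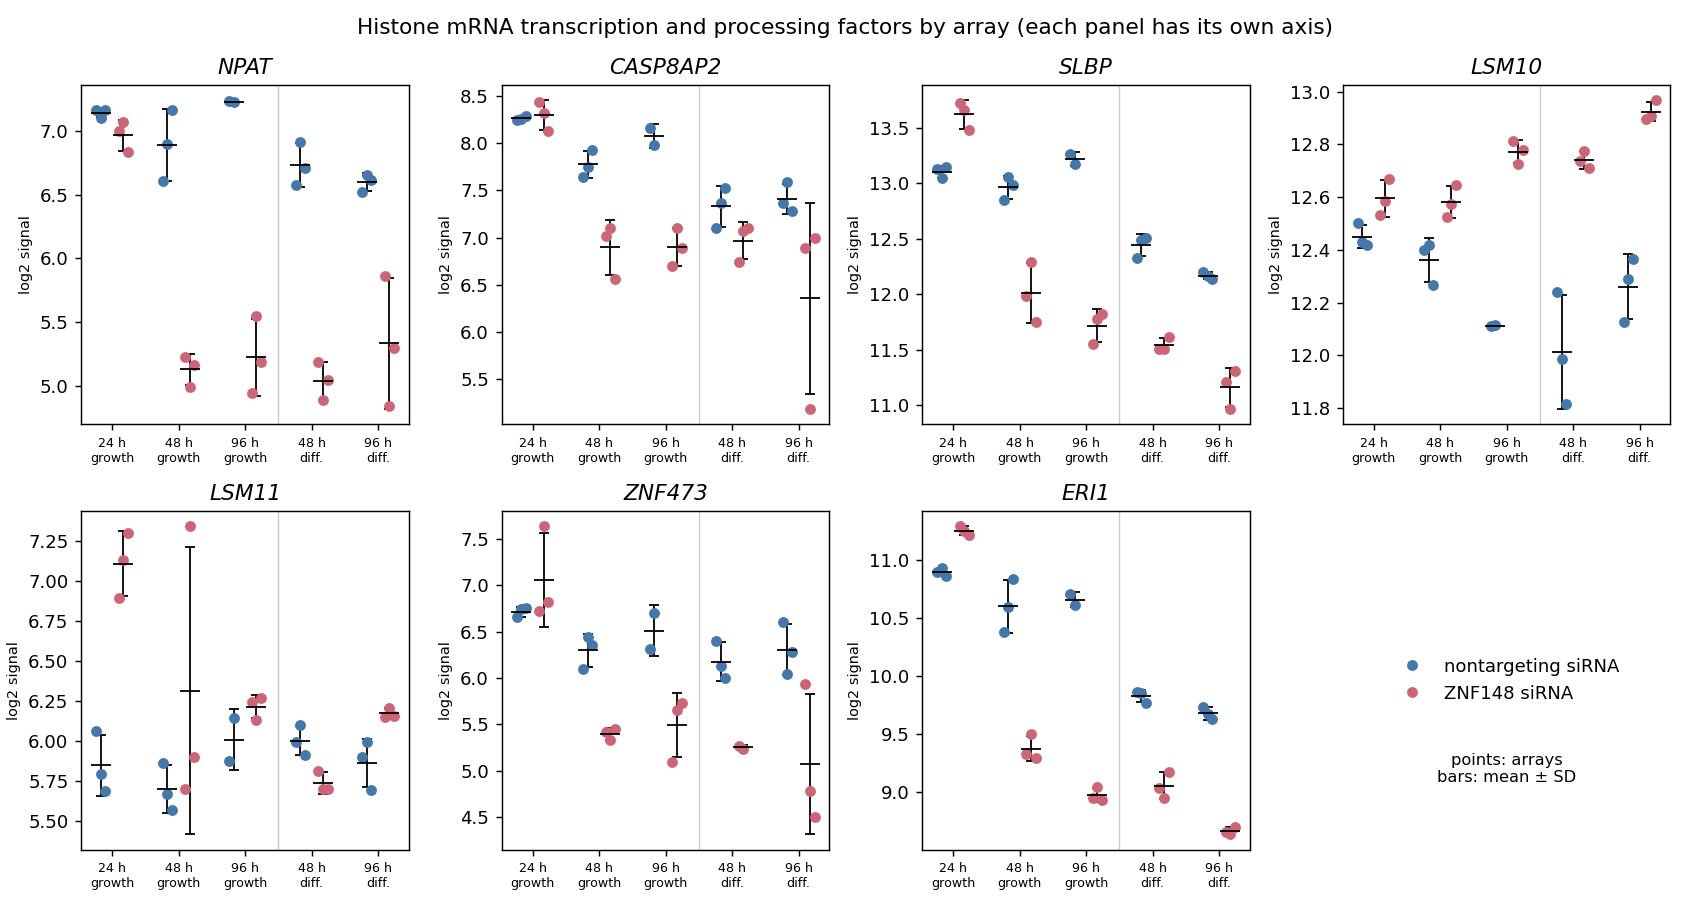
Log2 signal (y axis, a separate scale in each panel) of the 7 members on each array, by hours and media (x axis). Points are arrays and black bars are the mean ± SD of 3 arrays (2 for the 96 h controls in growth media and for ZNF473 with ZNF148 siRNA at 48 h in differentiation media). NPAT with ZNF148 siRNA lies between 4.84 and 5.86 from 48 h on, below all its controls, while LSM10 lies above its controls in every condition.

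SLBP, which binds the stem-loop, was higher with ZNF148 siRNA at 24 h and lower from 48 h on. It had 13.72, 13.66 and 13.48 with ZNF148 siRNA and 13.13, 13.04 and 13.14 with nontargeting siRNA at 24 h, so that its log2 level rose by 0.51 (SE 0.11, adjusted p = 0.0015). By 48 h in growth media it had 11.99, 12.29 and 11.75 against 12.85, 13.05 and 12.98. At 96 h it had 11.55, 11.78 and 11.83 against 13.26 and 13.17. Above all controls at 24 h, it was below all of them at both later times, and it fell by 0.95 (SE 0.11, adjusted p = 3.5e-07) and 1.50 (SE 0.13, adjusted p = 2.8e-09). In differentiation media it fell by 0.90 at 48 h and by 1.00 at 96 h (SE 0.11 each, adjusted p = 4.8e-07 and 1.5e-07), again without overlap.

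ERI1, the exonuclease, followed the course of SLBP. At 24 h it had 11.29, 11.25 and 11.22 against 10.90, 10.93 and 10.87 and rose by 0.36 (SE 0.09, adjusted p = 0.0035). By 48 h in growth media it had 9.33, 9.50 and 9.30 against 10.38, 10.60 and 10.83, and at 96 h 8.95, 9.05 and 8.94 against 10.71 and 10.61. The groups did not overlap, and it fell by 1.23 and 1.68 on the log2 scale (adjusted p = 1.7e-10 and 8.1e-12). In differentiation media its level fell by 0.77 at 48 h and by 1.01 at 96 h (SE 0.09 each, adjusted p = 8.6e-08 and 2.4e-09). Over the 10 group means, SLBP and ERI1 had a Pearson correlation of 0.99, where both genes were measured on the same arrays.

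LSM10 and LSM11, the ring proteins particular to U7, had no fall that passed the test. LSM10 had 12.81, 12.73 and 12.78 at 96 h in growth media with ZNF148 siRNA against 12.11 and 12.11. It was higher on each of those arrays, and its log2 level rose by 0.66 (SE 0.09, adjusted p = 3.8e-06). It rose by 0.73 and 0.66 at 48 and 96 h in differentiation media (SE 0.08 each, adjusted p = 1.1e-07 and 6.5e-07) and by 0.22 at 48 h in growth media (SE 0.08, adjusted p = 0.032), a call that was lost when any of 3 of the 6 arrays was left out, the lowest change being 0.17 (adjusted p = 0.14) without the 3rd nontargeting siRNA array. At 24 h the change was 0.15 (adjusted p = 0.24), with no overlap between the groups. The direction was the same with each way of scaling the arrays, but the 48 h call in growth media passed in 14 of 21 alternatives. It was also lost with normexp (adjusted p = 0.076, limma), without the filter on low signals (0.055) and with the arrays of the comparison alone (0.13). The t-test of the paper's methods, after adjustment, did not pass either (0.058).

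LSM11 had the largest change of the members at 24 h. It had 6.90, 7.13 and 7.30 with ZNF148 siRNA against 6.06, 5.79 and 5.69, so that its log2 level rose by 1.26 (SE 0.25, adjusted p = 0.00075). At 48 h in growth media 1 array was at 7.34 and the other two at 5.70 and 5.90, against 5.87, 5.67 and 5.57, and the change of 0.61 did not pass (adjusted p = 0.056). It passed with 5 alternative settings, among them the slide as a block (adjusted p = 0.038) and scaling to the 75th percentile (0.020), and without either of the 2 lower ZNF148 siRNA arrays. At 96 h in growth media and in both sets in differentiation media its changes lay between -0.27 and 0.31, and none passed. At 48 h in differentiation media its arrays lay below all controls, and the change of -0.27 passed in 3 of 21 alternatives. Among them were the arrays of the comparison alone (adjusted p = 0.047, limma) and the adjusted t-test of the paper's methods (0.035). At 96 h there its arrays lay above all controls, and the rise of 0.31 passed in 1 of 21 alternatives. The 24 h level of 7.11 stood above the next group, 6.31 at 48 h in growth media (adjusted p = 0.010), which includes the array at 7.34. These 2 groups shared no slide and differed in cell density, so this step cannot be told apart from slide, scan and density. No other pair of neighbours in the order of its 10 group means passed.

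ZNF473, the link between U7 and SLBP, had 5.41, 5.33 and 5.45 at 48 h in growth media against 6.10, 6.44 and 6.36, and 5.09, 5.65 and 5.73 at 96 h against 6.32 and 6.71. It fell by 0.90 (SE 0.28, adjusted p = 0.012) and 1.02 (SE 0.32, adjusted p = 0.012). In differentiation media it fell by 0.93 at 48 h (SE 0.32, adjusted p = 0.018), with 2 usable ZNF148 siRNA arrays at 5.27 and 5.24 against 6.40, 6.13 and 6.00, and by 1.23 at 96 h (SE 0.28, adjusted p = 0.0011), where 1 of the arrays, at 4.50, was below background. The 24 h change of 0.34 rested on 1 array at 7.64 and did not pass (adjusted p = 0.47). With the outlier spot kept, the 48 h change in differentiation media became 0.20 (adjusted p = 0.83) and the spread of the probe grew so that no ZNF473 change passed, the adjusted p being 0.22 at 48 h and 0.22 at 96 h in growth media and 0.081 at 96 h in differentiation media. Without the 1st ZNF148 siRNA array at 96 h in growth media, or the 2nd control array, that call was lost as well (adjusted p = 0.062 and 0.12). The 48 h call in differentiation media was lost without the 1st control array (0.062) or either usable ZNF148 siRNA array (0.067 and 0.076), and the 96 h call there was lost with the arrays of the comparison alone (0.062).

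**Figure D2:**
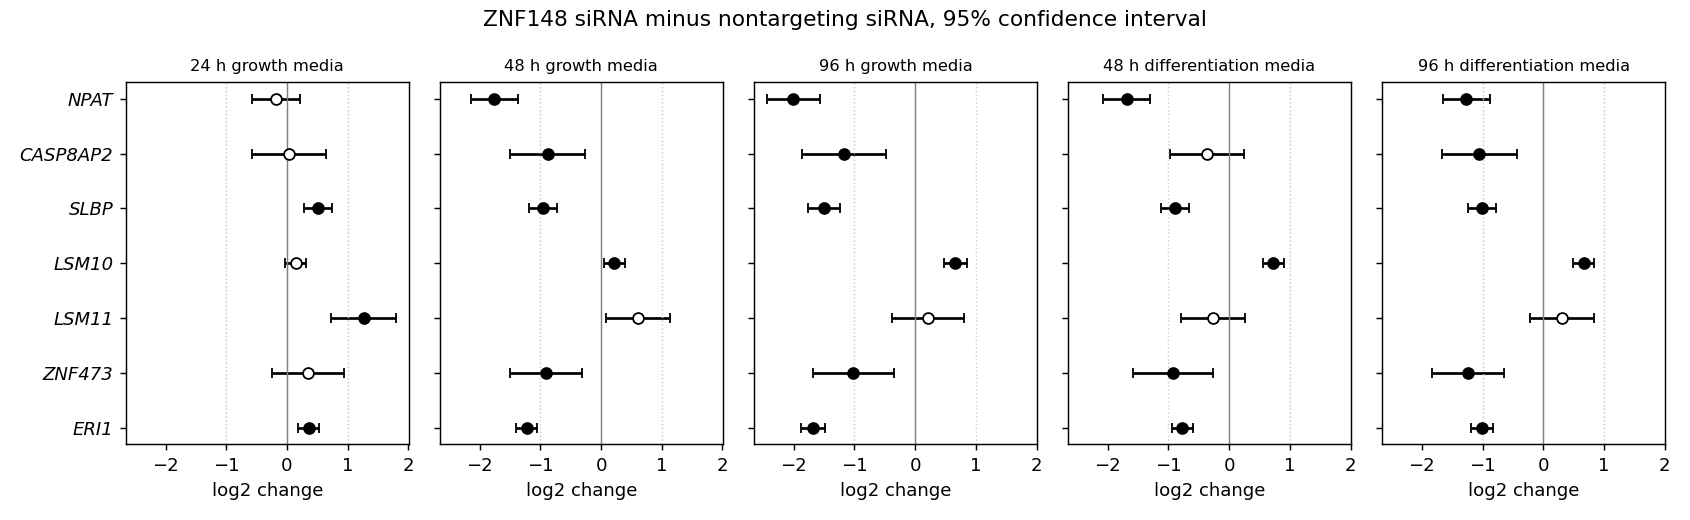
Log2 change with ZNF148 siRNA relative to nontargeting siRNA (x axis) of each member (y axis) in the 5 conditions, with its 95% confidence interval. Filled points have an adjusted p under 0.05 and dotted lines mark a 2-fold change. LSM11 passes the 2-fold line at 24 h, and NPAT lies beyond it in the other 4 conditions.

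Counted together, 3 of the 7 members rose at 24 h (SLBP, LSM11 and ERI1) and none fell, while 15.6% of the 18398 tested genes rose and 16.8% fell. The median change of the members was 0.34, against -0.001 for all tested genes. LSM11 rose more than 2-fold, as did 2.45% of genes. In growth media at 48 h, 1 member rose (LSM10) and 5 fell, where 26.8% of genes rose and 31.1% fell, and the median change was -0.90 against -0.05. NPAT and ERI1 fell more than 2-fold, as did 12.2% of genes, and without the 1st nontargeting siRNA array 6 members were still called and 4 fell more than 2-fold (NPAT, ERI1, SLBP and ZNF473). At 96 h in growth media, LSM10 rose and the other 5 called members fell, where 26.2% and 30.1% of genes did. All 5 falls were past 2-fold, against 12.3% of genes, and the members' median was -1.17 against -0.03.

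In differentiation media, LSM10 rose at both times. At 48 h, 4 members fell (NPAT, SLBP, ZNF473 and ERI1), where 30.1% of genes rose and 34.7% fell, and NPAT alone of the 7 was past 2-fold downward, as 17.3% of genes were. At 96 h, 5 members fell and 5 were past 2-fold downward, where 25.1% of genes rose, 33.9% fell and 12.9% fell more than 2-fold. The medians were -0.77 and -1.01, against -0.05 and -0.06 for all tested genes. SLBP, ERI1 and CASP8AP2 were close to the 2-fold limit at 96 h in differentiation media, and the number past it went from 5 to 2 without the 2nd ZNF148 siRNA array and to 3 without the 1st nontargeting siRNA array.

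The effect of ZNF148 siRNA on the members differed between times. Cells in growth media were subconfluent at 24 h and confluent later, so time and cell density cannot be told apart in differences from 24 h. The effect at 48 h was lower than that at 24 h for 4 members (NPAT, SLBP, ZNF473 and ERI1), where 21.5% of genes had a higher and 24.2% a lower effect, and the effect at 96 h was lower than at 24 h for 6 members and higher for LSM10, where 24.8% and 22.3% of genes were called. For SLBP the effect moved by -1.47 and -2.01 on the log2 scale and for ERI1 by -1.58 and -2.04. The 24 h arrays of both groups were on 1 slide that held no other time, so each effect there was measured within a slide. Within slides SLBP changed by 0.51 at 24 h and by -1.30 to -0.56 at 48 h in growth media, and ERI1 by 0.36 and by -1.50 to -0.88. Between 48 and 96 h in growth media, the effects on SLBP (-0.55, adjusted p = 0.039) and ERI1 (-0.45, adjusted p = 0.024) deepened and that on LSM10 (0.44, adjusted p = 0.023) grew, where 7.53% of genes had a lower and 7.92% a higher effect. The SLBP difference did not pass in 3 of 6 alternatives: it was -0.49 without the array that stood apart (adjusted p = 0.068), -0.61 with scaling to the 75th percentile (0.052) and -0.55 with the replicate number as a block (0.057).

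At 48 h, the effect was higher in differentiation media than in growth media for LSM10 (by 0.51, adjusted p = 0.0016) and for ERI1, whose fall was smaller (by 0.46, adjusted p = 0.0053), where 20.5% of genes had a higher and 21.7% a lower effect, and it was lower for none. At 96 h, the falls of SLBP and ERI1 were smaller in differentiation media, by 0.50 (adjusted p = 0.036) and 0.67 (adjusted p = 0.00049), where 14.1% of genes had a higher and 17.5% a lower effect. For NPAT the differences were 0.07 at 48 h (95% interval -0.49 to 0.62) and 0.74 at 96 h (0.15 to 1.33), and neither passed (adjusted p = 0.90 and 0.062). The 96 h difference passed in 3 of 6 alternatives, scaling to the 75th percentile (0.81, adjusted p = 0.022), normexp (0.45, adjusted p = 0.013) and the other 28 arrays (0.74, adjusted p = 0.049).

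With nontargeting siRNA, 3 of the 7 members were lower in differentiation media than in growth media at each time, where 24.5% of genes were lower at 48 h and 22.1% at 96 h. At 48 h these were SLBP (-0.52, adjusted p = 0.00066), LSM10 (-0.35, adjusted p = 0.0015) and ERI1 (-0.78, adjusted p = 1.6e-07), and at 96 h NPAT (-0.63, adjusted p = 0.023), SLBP (-1.05, adjusted p = 8.6e-07) and ERI1 (-0.98, adjusted p = 5.0e-08). The 48 h controls in growth media include the array that stood apart. Its myotube median of 15.46 was above the 10.04 to 11.90 of the 48 h controls in differentiation media. This 48 h comparison of media was not refitted without it, so its values and counts are uncertain. With ZNF148 siRNA, SLBP and ERI1 were lower in differentiation media at both times, as were 11.7% and 18.5% of genes. ERI1 was at 10.60 to 10.90 in the 3 control groups in growth media, at 9.83 and 9.68 in those in differentiation media, and at 8.67 to 9.38 with ZNF148 siRNA from 48 h on. The highest ERI1 level was that with ZNF148 siRNA at 24 h, 11.25, which differed from the next, 10.90 (adjusted p = 0.0035). The step from 10.60 to 9.83 separated control cells in growth and differentiation media (adjusted p = 1.6e-07). The controls at 24 and 96 h in growth media, at 10.90 and 10.66, were not told apart (adjusted p = 0.057) and were on different slides.

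The replication-dependent histone genes moved in both directions. Among 52 tested HIST1H genes, the largest histone cluster, 46 rose and 1 fell at 24 h, 10 rose and 36 fell at 48 h, and 13 rose and 34 fell at 96 h in growth media. The 1 that fell at 24 h was not well above background on any 24 h array, so that fall is uncertain. The median changes were 0.75, -1.40 and -1.31. Without the array that stood apart, 9 rose and 36 fell at 48 h and the median was -1.51. In differentiation media 22 rose and 17 fell at 48 h, and 23 rose and 17 fell at 96 h, with medians of -0.02 and 0.19, while 4 and 5 members fell. The sign of the 48 h median depended on the scaling (0.016 with scaling of the scanner signals to the 75th percentile). The counts by class in differentiation media stand beside 30.1% of all genes rising and 34.7% falling at 48 h and 25.1% and 33.9% at 96 h. Of 15 tested H2B genes 13 rose and none fell at each time (medians 1.03 and 1.25). Of 6 H1 genes 5 rose and none fell at 48 h, and 3 rose and 1 fell at 96 h. Among the 5, 1 was well above background on no control array and on 1 ZNF148 siRNA array at 48 h. Of 15 H2A genes 1 rose and 6 fell at 48 h, and 6 rose and 3 fell at 96 h. The 13 H3 genes split into 5 that rose and 5 that fell at 48 h, and 2 rose and 10 fell at 96 h. None of 13 H4 genes rose and 12 fell at 48 h, and 2 rose and 6 fell at 96 h.

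Single histone genes spanned this range at 96 h in growth media, where SLBP and NPAT were at 35.4% and 24.9% of the control. H4C3 had 14.68 to 14.81 with ZNF148 siRNA against 17.71 and 17.78, a fall of 3.00 (adjusted p = 4.0e-16), and H3C2 fell by 5.14 (SE 0.14, adjusted p = 2.0e-16). H2BC12, by contrast, had 12.91 to 13.01 against 11.40 and 11.48 and rose by 1.52 (SE 0.24, adjusted p = 1.7e-05), and at 96 h in differentiation media it rose by 2.09 (SE 0.21). The labelling protocol starts from poly(A) tails, which most replication-dependent histone mRNAs lack, and which form of each histone mRNA was measured was not tested. Histone genes of the same class are close in sequence, so their probes may share signal and the values of single genes are uncertain.

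Of 20 genes used as S phase markers, 17 rose and 1 fell at 24 h, 1 rose and 19 fell at 48 h, and 20 fell at 96 h in growth media, with median changes of 0.84, -2.09 and -2.41. The other 28 arrays gave the same counts at 48 h and a median of -2.25. In differentiation media 14 and 15 fell and 3 and 2 rose, with medians of -0.46 and -0.89. RRM2, a subunit of ribonucleotide reductase, had 6.56 to 6.97 with ZNF148 siRNA at 48 h in growth media against 10.22 to 10.85 and fell by 3.87 (adjusted p = 4.8e-11). MCM7, a subunit of the replicative helicase, was the 1 marker that fell at 24 h, by 0.76 (adjusted p = 2.2e-06). In control groups the median S phase level was 11.35 to 11.67 in growth media and 9.08 and 9.67 in differentiation media. SLBP and ERI1 with nontargeting siRNA were also lower in differentiation media.

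Myotube markers moved the other way. All 6 rose in growth media at 48 and 96 h and in differentiation media at 48 h, with median changes of 6.35, 6.07 and 5.37, and without the array that stood apart the first of these was 8.80. At 96 h in differentiation media 2 passed, where the median level was 17.62 to 17.67 with ZNF148 siRNA against 13.96 to 14.28 and the median change was 3.03. The spread in these tests came from all arrays, with the array that stood apart among them, and this condition was not refitted without it. For 1 of the 2 that passed, the SE was 1.17, while its arrays were at 17.31 to 17.44 against 13.66 to 14.07. None rose at 24 h, when none of the 3 control arrays had more than 3 of the 6 above background. Of 8 tested markers of other cell types (endothelial, blood, epithelial, fat and neural crest cells), none changed at 24 h, 2 rose at 48 h and 1 rose and 1 fell at 96 h in growth media, and 3 rose and 1 fell at each time in differentiation media. Their median was 3.53 to 5.93 over the 29 arrays, with 1 to 6 of them well above background. The part of these marker changes in the changes of the members was not tested.

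**Figure D3:**
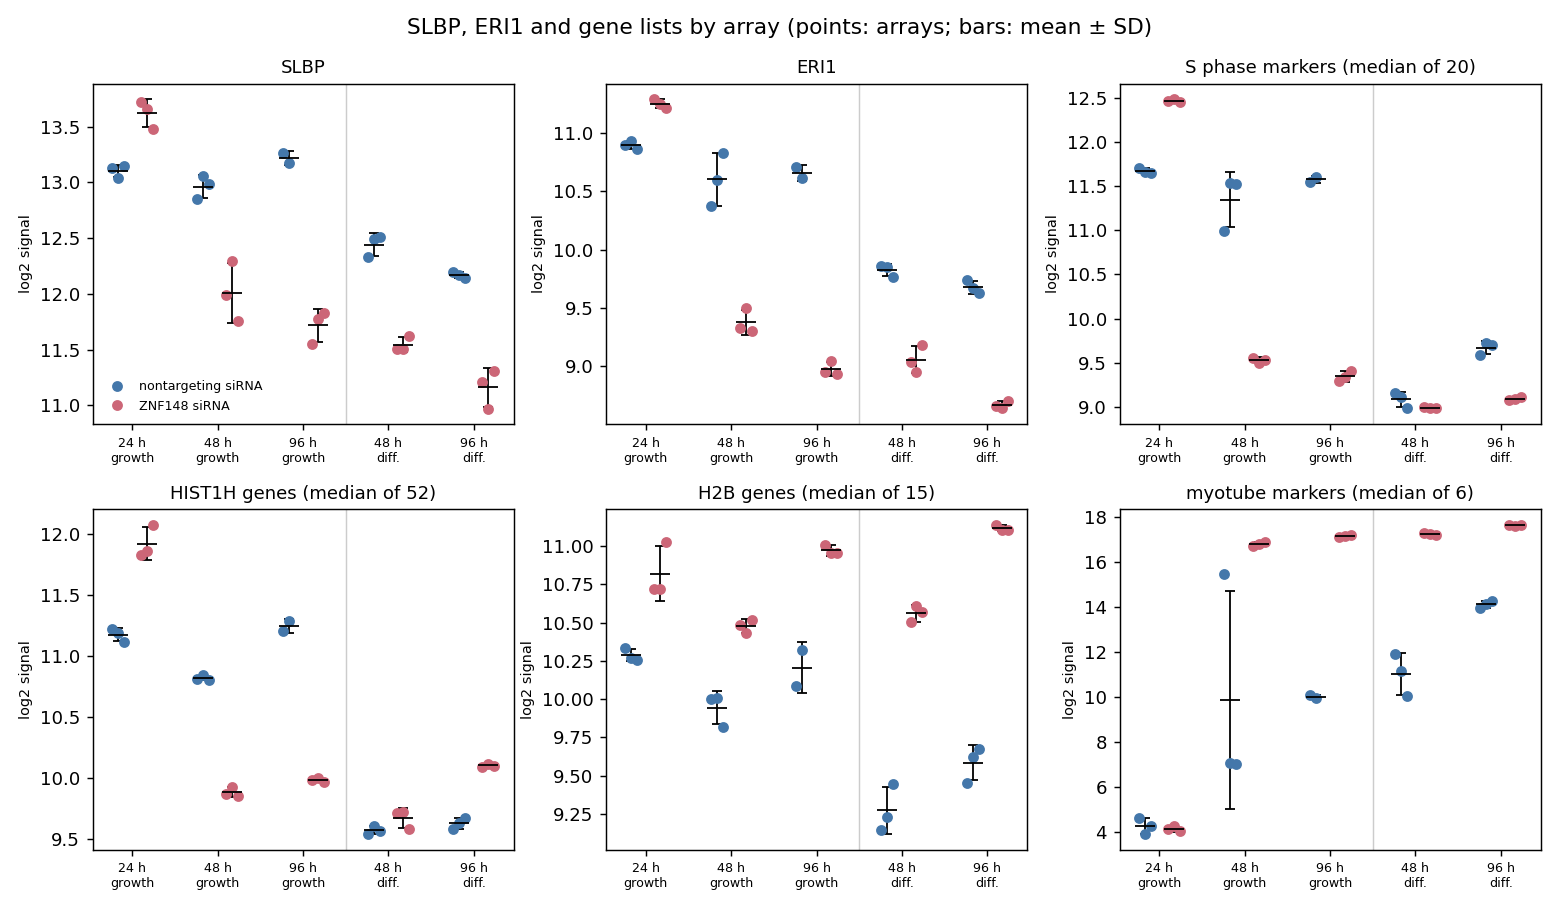
Log2 signal (y axis, a separate scale in each panel) of SLBP and ERI1 and the median log2 signal of gene lists on each array, by hours and media (x axis). Points are arrays and bars are the mean ± SD. SLBP, ERI1, the S phase markers and the HIST1H genes are above their controls at 24 h and below them at 48 and 96 h in growth media, while the H2B median stays above its controls in every condition.

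Of 13 tested genes of the cleavage machinery, which includes the endonuclease subunits CPSF2 and CPSF3 and the Sm proteins, 9 rose at 24 h, and 3 rose and 7 fell at both later times in growth media, with none past 2-fold in growth media. In differentiation media at 48 h, SNRPB and SNRPD3, Sm proteins of the spliceosomal and U7 rings, rose by 1.05 and 1.02 (adjusted p = 5.4e-08 and 6.8e-11). SNRPB had 12.57 to 12.63 with ZNF148 siRNA against 11.28 to 11.91. The medians of the list lay between -0.28 and 0.37, beside -1.17 to 0.34 for the members.

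Of 10 genes that act with NPAT at the histone locus, 6 rose and 1 fell at 24 h and 4 fell more than 2-fold at 48 h in growth media. CCNE2, a cyclin E that activates the CDK2 kinase upstream of NPAT, had 5.11 to 5.97 with ZNF148 siRNA at 48 h against 8.68 to 9.37 and fell by 3.41 (SE 0.31, adjusted p = 1.1e-08), and by 3.82 at 96 h. CDK2 changed by -2.67 and -2.53 at these times (adjusted p = 0.00022 and 0.0012). CDC25A, the phosphatase that activates CDK2, rose by 1.55 at 24 h, fell by 2.12 at 48 h and by 1.32 at 96 h in growth media, and rose by 1.32 at 48 h in differentiation media (adjusted p = 9.5e-05). At 96 h in differentiation media CCNE2 was not well above background on any ZNF148 siRNA array, and it was at least 2.21-fold lower than with nontargeting siRNA (adjusted p = 2.8e-07).

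SLBP protein is removed at the end of S phase after phosphorylation by cyclin A and CDK1, and its level was not measured here. Among 6 genes of that turnover, CCNA2 and CDK1 rose at 24 h (1.05 and 0.78) and changed by -4.26 and -4.79 at 96 h in growth media (adjusted p = 9.6e-14 and 1.3e-14). CCNF, the F-box cyclin, rose by 1.65 at 24 h and fell by 2.62 at 96 h, when it was well above background on 1 of 3 ZNF148 siRNA arrays. In differentiation media at 48 h none fell, and CDK1 rose by 1.08 (adjusted p = 5.3e-06). At 96 h there 3 of the 6 fell and 2 rose, with CDK1 at -3.10 and CCNA2 at -2.88 (adjusted p = 1.2e-12 and 4.7e-12). CDK1 was then well above background on 2 of 3 ZNF148 siRNA arrays and CCNA2 on 1 of 3, so these sizes are uncertain.

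Of 14 tested genes of translation, export and decay of histone mRNA, as many as 6 rose and 7 fell in any condition, and the median change lay between -0.30 and 0.09. DCP2, the decapping enzyme, rose in all 5 conditions: it had 10.60 to 10.81 with ZNF148 siRNA at 24 h against 8.49 to 8.66, a rise of 2.14 (SE 0.20, adjusted p = 9.4e-08), and rises of 2.28, 2.20, 2.50 and 0.98 followed. The uridylyl transferases TUT4 and TUT7, which add uridines to RNA ends, moved in opposite directions. TUT4 rose by 1.23 at 48 h in growth media and by 1.73 at 48 h in differentiation media (adjusted p = 4.7e-07 and 1.5e-09), and TUT7 fell by 1.19 and 0.73 there (adjusted p = 1.3e-07 and 5.5e-05).

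**Figure D4:**
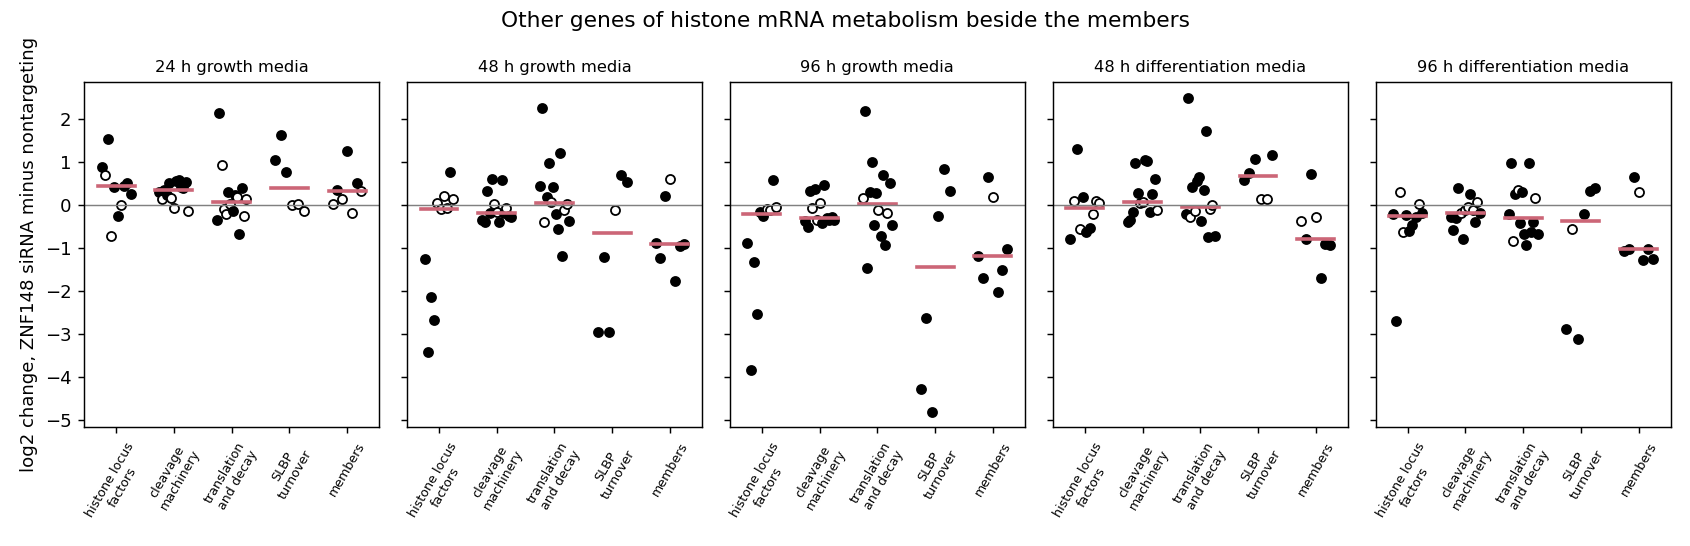
Log2 change with ZNF148 siRNA relative to nontargeting siRNA (y axis) of each tested gene of the lists (x axis) in the 5 conditions. Filled points have an adjusted p under 0.05 and red bars are list medians. The median of the members lies below the median of the cleavage machinery in the 4 conditions after 24 h, at -1.17 against -0.28 at 96 h in growth media.

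ATM, the neighbour that shares the region upstream of NPAT, did not give a single direction. Of its 2 probes, the brighter rose in growth media at 24 and 48 h and in differentiation media at both times (by 0.46, 0.41, 0.90 and 0.32), while the other fell by 0.89, 0.90, 0.98 and 1.07 at 48 and 96 h in growth media and 48 and 96 h in differentiation media. The ATM results are therefore uncertain, while the NPAT probe fell in those 4 conditions.

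Over the 10 group means, ERI1, SLBP, CASP8AP2 and ZNF473 had Pearson correlations of 0.95 to 0.99 with each other, and NPAT of 0.88 to 0.93 with them, as a description over points that share arrays. LSM10 had -0.52 to -0.74 with these 5, and LSM11 at most 0.29 in size with them. Among about 12390 genes well above background on every array, the closest to NPAT were CEP295, DUT and CCP110 (0.99 each), those closest to SLBP were NRM, NUP50 and ERI1 (0.99 each), and those closest to ERI1 were TEX10, NRM and PRIM1 (0.99 to 1.00). TEX10 was also the closest to CASP8AP2, with RBBP8 and ZMYM1 (0.99 each), and ZNF107, UMPS and LRRC58 were closest to ZNF473 (0.99 each). PSMB5, ZBTB8OS and SRA1 were closest to LSM10 (0.97 to 0.98), and PTPRK, MIS12 and FUT4 to LSM11 (0.87 to 0.91).

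At 48 h, each of 3 slides held 1 array of each group in both media. Within slides NPAT changed by -1.93 to -1.61 in growth media and by -1.86 to -1.52 in differentiation media, and SLBP by -1.30 to -0.56 in growth media. In differentiation media SLBP fell by 0.82 to 1.00. LSM10 was higher within every such slide, by 0.17 to 0.26 and by 0.53 to 0.92. At 96 h in growth media both control arrays were on 1 slide with 1 ZNF148 siRNA array, and within it the change was -1.68 for NPAT and -1.44 for SLBP.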

How the data were processed

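Total RNA from 29 samples was labelled from poly(A) tails and hybridized to one-colour Agilent arrays read with Feature Extraction 10.7.3.1, per the file headers. The deposited log2 values were quantile-normalized by the authors (median 4.28). The deposited intensity columns of the scanner files gave background calls, outlier marks, slide and scan. Values of probes whose spots were all marked as outliers were left out (891 values, 0.0528%), a choice made after the values were seen. The test covered the 38714 probes (18398 genes) that 2 or more arrays measured well above background, and the probe of highest mean stood for its gene. With limma 3.58.1 in R 4.3.3, a mean per group was fitted over all arrays, and p-values were adjusted by Benjamini-Hochberg over all tested probes. A change was called at an adjusted p under 0.05. SE and 95% intervals come from that fit, and the number of arrays limits precision. Named genes were the members, ZNF148, ATM, up to 3 genes per list and condition with the largest change past 2-fold, and the 3 genes most correlated with each member. DES and the values of named genes at other times were added for description, and 1 gene that the rule names is not reported here. The members and lists were chosen with earlier results of these data known. The fit was tested on simulated data. Other backgrounds, scalings, filters, variance models, blocks, the methods' t-test and leaving out each array were tried as alternatives.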

Additional observations from a re-analysis of the deposited data

Results flagged for a closer look

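The effect of ZNF148 siRNA differed between times or media for each of the 7 members in at least 1 of the 5 tested differences, by a contrast of effects in the same limma fit. Cell density also differed between 24 h and the later times in growth media. Between 24 and 48 h in growth media the log2 effect changed by -1.58 for NPAT (adjusted p = 6.7e-05), -1.47 for SLBP (2.8e-07), -1.25 for ZNF473 (0.019) and -1.58 for ERI1 (2.2e-09).

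Between 24 and 96 h in growth media the log2 effect changed by -1.83 for NPAT (adjusted p = 2.2e-05), -2.01 for SLBP (5.7e-09), -1.21 for CASP8AP2 (0.037), 0.51 for LSM10 (0.0021), -1.06 for LSM11 (0.035), -1.36 for ZNF473 (0.016) and -2.04 for ERI1 (8.6e-11).

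Between 48 and 96 h in growth media it changed by -0.55 for SLBP (adjusted p = 0.039), 0.44 for LSM10 (0.023) and -0.45 for ERI1 (0.024). The SLBP difference did not pass with the replicate block (0.057), the 75th percentile (0.052) or the other 28 arrays (0.068).

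The effect in differentiation media differed from that in growth media at 48 h by 0.51 for LSM10 (adjusted p = 0.0016) and 0.46 for ERI1 (0.0053), and at 96 h by 0.50 for SLBP (0.036) and 0.67 for ERI1 (0.00049). The ZNF473 differences were not past the threshold with the outlier spot kept (adjusted p = 0.27 and 0.25).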

How the results depend on the processing

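The numbers of members called (3, 6 and 6 in growth media and 5 and 6 in differentiation media, in order of time) stayed within 1.5 times under every alternative. Leaving out each array gave 3 to 3, 4 to 7, 5 to 6, 4 to 5 and 6 to 6. Of 728 values of single members under alternatives, 687 kept their direction and side of the threshold, 25 lost it, 14 gained it and 2 changed sign. These 2 were CASP8AP2 at 24 h without the 1st ZNF148 siRNA array (-0.038) and ZNF473 at 48 h in differentiation media with outlier spots kept (0.20), where the kept spot is the cause. Other causes were not tested.

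Counts past 2-fold (1, 2, 5, 1 and 5) were less stable. Normexp gave 0, 1, 3, 0 and 0. At 48 h in growth media the other 28 arrays gave 4, at 96 h the slide block gave 3, and at 96 h in differentiation media the 75th percentile gave 2, while array weights, the arrays of the comparison only and the methods' t-test, unadjusted and adjusted, gave 3 each. Leaving out each array gave 1 to 1, 2 to 4, 4 to 5, 1 to 2 and 2 to 5.

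The median change of the HIST1H genes at 48 h in differentiation media was 0.016 with the 75th percentile, 0.016 with normexp and 0.049 with outlier spots kept. Differences of effects that were not past the threshold and changed sign were LSM10 between 24 and 48 h (-0.011, 75th percentile), between media at 48 h SLBP (-0.0076, normexp) and ZNF473 (1.10 with outlier spots kept, 0.0055 with the replicate block, 0.080 with 28 arrays), and between media at 96 h LSM10 (-0.043) and ZNF473 (0.077), both with normexp.

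Replicate numbers did not pair the samples (correlations of deviations -0.15 to 0.12). With the replicate block, 3, 6, 6, 5 and 6 members were called, and of the differences between effects the block took 1 below the threshold, that for SLBP between 48 and 96 h (-0.55, adjusted p = 0.057). CASP8AP2 lost its call at 48 h in growth media without the 3rd array of either group (adjusted p = 0.064 and 0.089, limma), at 96 h without the 1st control array (0.053) and at 96 h in differentiation media with the arrays of the comparison only (0.17) or the methods' test (0.15 unadjusted, 0.25 adjusted), where ZNF473 lost its call too (0.058 and 0.12). The fit of the other 28 arrays for the gene lists was chosen after seeing the data.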
